A study of Mus musculus with 6 samples.

Results

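The mitochondrial ribosomal protein genes of the mouse were followed at day 7 of reprogramming in fibroblasts with intact or altered Adar. A gene was a member if its symbol in the deposited tables read Mrpl or Mrps followed by a number, and no expression value entered that choice. The rule found 77 members among 23406 named symbols. By symbol, 48 are Mrpl genes of the large subunit and 29 are Mrps genes of the small subunit. All 77 reached the level needed for testing.

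Mitochondria translate the few messenger RNAs of their own genome, which encode core subunits of the respiratory chain and ATP synthase, on a ribosome of their own. The ribosomal RNAs come from mitochondrial DNA, whereas every protein of that ribosome is made from a nuclear gene, translated in the cytosol and imported. Some members descend from bacterial ribosomal proteins and keep their numbers, while others were added during the evolution of mitochondria. Symbol and place do not always match. Structures put Mrps18a and Mrps30 in the large subunit, and the Mrps36 protein is now known as a part of the 2-oxoglutarate dehydrogenase complex.

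All 6 libraries came from mouse embryonic fibroblasts that had been given OSKM (Oct4, Sox2, Klf4 and Myc, the factors that reprogram somatic cells) and had reached day 7. ADAR1, the product of Adar, deaminates adenosines within double-stranded RNA to inosine. The KO group had 2 floxed Adar alleles (Fl/Fl) and received 4OHT, an active tamoxifen metabolite used to switch on inducible Cre (2 libraries). The WT group had the same alleles and received vehicle (2 libraries). The MUT group had 1 floxed and 1 E861A allele (Fl/E861A) and received 4OHT (1 library). Its counterpart, the HET group, had the MUT alleles and received vehicle (1 library). E861A is a change in the catalytic domain that abolishes editing. The Cre line is not given in the labels, and no library combined 4OHT with non-floxed alleles, so the agent and the loss of the floxed allele cannot be told apart. The labels do not say whether replicates were separate cultures, so p-values cover only the spread from library to library, and that spread may be technical.

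Levels are FPKM, fragments scaled to transcript length and to the size of the library, so they can be compared between genes. The summed FPKM of all rows was 588991 to 664385 per library. Rows without a gene name held 11.4% and 14.2% of it in KO and 8.26% to 10.2% in the other libraries. The row of Adar stood at 34.2 and 31.3 FPKM in KO, against 19.6 and 19.5 FPKM in WT, and at 33.0 FPKM in MUT, against 17.0 FPKM in HET. A value for the whole gene does not show whether the floxed exons were lost, so it does not check the labels. The fibroblast markers Col1a1, Col1a2, Pdgfra, Thy1, Vim and Fn1 summed to 3313 and 3237 FPKM in KO, 4617 and 4280 in WT, 4107 in MUT and 4318 in HET. The pluripotency markers Pou5f1, Nanog, Sox2, Zfp42, Esrrb and Dppa5a summed to 24.4 and 14.2 FPKM in KO, 442 and 345 in WT, 31.8 in MUT and 405 in HET. Of 4 macrophage markers with a row, 3 stayed under 1 FPKM in every library (Ptprc, Adgre1 and Csf1r). So did 1 of 4 endothelial markers (Cdh5) and 1 of 4 neural markers (Rbfox3). The macrophage, endothelial and neural lists as a whole summed to 3.62 to 38.0, 3.66 to 7.09 and 41.7 to 175 FPKM. By the limma test described below, 1 fibroblast marker was higher in KO than in WT and 3 were lower, and all 6 pluripotency markers were lower. The 1 macrophage and 3 neural markers tested were lower, and of 3 endothelial ones 1 was higher and 2 were lower.

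Promoter sequence was available for 68 of the 77 members, with 74 promoters among them. Each runs from 250 bases before to 50 bases after an annotated start (RefSeq, GRCm38.p6). Both strands were searched for 5 short motifs of factors tied to nuclear genes for mitochondria, and a match is only a run of letters. The ETS core CCGGAAG, which GABP binds, was in 25 of the 74 promoters (33.8%), against 16.9% of the promoters of the other tested genes and 8.86% of all promoters in the table. The YY1 core AAGATGGC was in 12 (16.2%), against 4.16% and 2.75%. The NRF1 core GCGCATGC was in 8 (10.8%), against 5.0% and 2.71%. The E-box CACGTG, to which Myc and Max bind, was in 7 (9.46%), against 9.76% and 7.15%. Those 7 promoters belong to 5 members, as several are promoters of Mrpl2. The letters TGATGNAA, a form of the amino acid response element that ATF4 binds, were in 0 member promoters, against 2.27% and 3.97%. Mean GC content was 59.0% in member promoters, 61.0% in those of other tested genes and 53.8% in all promoters.

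The promoters of 5 members are printed because of the place of these genes in the results, and no link from motif to change was tested. Mrps18a rose most and Mrpl18 fell most in KO, Mrpl32 had the largest rise among Mrpl genes, and Mrps18b and Mrps18c are the paralogs of Mrps18a. Capitals mark motif matches, the strand is that of the gene, and the sequences follow as Mrps18a at chr17:46110754-46111053 (plus), Mrpl18 at chr17:12916042-12916341 (minus), Mrpl32 at chr13:14612988-14613287 (minus), Mrps18b at chr17:35916391-35916690 (minus) and Mrps18c at chr5:100798509-100798808 (plus).
Mrps18a: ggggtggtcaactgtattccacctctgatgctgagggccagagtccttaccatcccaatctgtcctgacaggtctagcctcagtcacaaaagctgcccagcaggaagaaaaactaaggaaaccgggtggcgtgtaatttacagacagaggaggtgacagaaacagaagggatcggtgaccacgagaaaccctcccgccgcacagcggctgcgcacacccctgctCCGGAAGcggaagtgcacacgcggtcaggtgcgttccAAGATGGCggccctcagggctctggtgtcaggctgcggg
Mrpl18: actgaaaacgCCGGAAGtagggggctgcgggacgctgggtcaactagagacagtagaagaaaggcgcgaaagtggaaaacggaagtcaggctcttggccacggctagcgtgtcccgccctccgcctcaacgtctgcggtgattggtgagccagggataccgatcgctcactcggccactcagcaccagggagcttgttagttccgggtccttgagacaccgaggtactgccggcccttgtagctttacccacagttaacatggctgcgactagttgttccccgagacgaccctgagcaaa
Mrpl32: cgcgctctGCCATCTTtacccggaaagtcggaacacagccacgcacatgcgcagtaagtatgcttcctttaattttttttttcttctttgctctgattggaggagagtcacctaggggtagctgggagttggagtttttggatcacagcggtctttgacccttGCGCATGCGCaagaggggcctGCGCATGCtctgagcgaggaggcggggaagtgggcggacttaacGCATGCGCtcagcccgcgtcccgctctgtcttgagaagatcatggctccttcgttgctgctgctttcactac
Mrps18b: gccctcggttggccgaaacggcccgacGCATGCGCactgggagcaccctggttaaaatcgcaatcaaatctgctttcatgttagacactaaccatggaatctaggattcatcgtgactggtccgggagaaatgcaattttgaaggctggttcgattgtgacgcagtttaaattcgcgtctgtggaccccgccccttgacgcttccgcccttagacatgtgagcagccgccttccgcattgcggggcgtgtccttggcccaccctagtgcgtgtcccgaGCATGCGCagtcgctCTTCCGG
Mrps18c: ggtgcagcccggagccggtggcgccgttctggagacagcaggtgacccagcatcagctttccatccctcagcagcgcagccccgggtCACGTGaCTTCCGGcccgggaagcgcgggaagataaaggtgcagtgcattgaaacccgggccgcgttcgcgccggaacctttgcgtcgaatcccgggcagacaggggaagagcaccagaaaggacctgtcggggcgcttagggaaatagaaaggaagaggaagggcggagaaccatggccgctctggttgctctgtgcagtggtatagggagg
The Mrps18a promoter holds an ETS core beginning 26 bases before the start and a YY1 core beginning 12 bases after it. The Mrpl18 promoter holds an ETS core 240 bases before the start. These distances run from the RefSeq start. GENCODE M21 begins Mrpl18 further upstream, at 12916345, so the whole printed Mrpl18 stretch lies within that gene. It also begins Mrpl32 upstream, at 14613165, so the NRF1 matches given next lie within that gene. The Mrpl32 promoter holds 4 matches to the NRF1 core, of which the 2 beginning at 87 and 85 bases before the start overlap, and a YY1 core 242 bases before it. Mrps18b has NRF1 and ETS cores, and Mrps18c has an E-box and an ETS core within the same short stretch. GENCODE M21 begins Mrps18b further downstream, at 35916389, so the whole printed Mrps18b stretch lies upstream of that gene. Among the promoters of members that rose in KO, 4 of 14 held an ETS core, against 6 of 16 of members that fell and 15 of 44 of members without a call.

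Although the proteins sit in the same particle, the levels of their transcripts differed widely. Mean FPKM over the 6 libraries ran from 7.60 to 231, with a median of 38.7. The highest value was on the row of Mrpl24, a protein at the exit of the peptide tunnel, but that row also names Hdgf. Its values were 216 and 224 FPKM in KO, 242 and 228 in WT, 210 in MUT and 265 in HET. Next came Mrpl33 with 203 and 253 FPKM in KO, 175 and 171 in WT, 193 in MUT and 183 in HET. Mrpl52, a protein found only in mitochondrial ribosomes, had 168 and 246 FPKM in KO, 167 and 149 in WT, 168 in MUT and 183 in HET. For Mrpl33 and Mrpl52 the higher KO value was in KO 2. At the low end were Mrpl19, of the interface between the subunits, with 8.01 and 7.57 FPKM in KO, 7.21 and 7.74 in WT, 6.18 in MUT and 8.90 in HET, and Mrpl35 with 8.86 and 8.44 FPKM in KO, 7.22 and 7.87 in WT, 7.87 in MUT and 8.86 in HET. Mrpl1, the protein of the L1 stalk next to the exit site for transfer RNA, had 12.6 and 12.0 FPKM in KO and 8.39 and 9.37 in WT. It stood at 12.8 FPKM in MUT and 8.47 in HET, so both 4OHT groups lay above both vehicle groups. The log2 difference for Mrpl1 was 0.43 (SE 0.10, limma adjusted p = 0.00511). It lost its call without WT 1 (adjusted p = 0.0528).

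The first comparison asked how members changed when floxed Adar was treated with 4OHT in the Fl/Fl cells. Rises and falls were near equal in number, and most members were not called. Of 77 members, 27 were called (35.1%), 14 higher and 13 lower in KO. Calls were made for 57.7% of the 12266 genes tested, 29.5% higher and 28.2% lower, and for 57.6% of the 7492 genes within the members' range of mean FPKM. A call is a limma adjusted p under 0.05 on log2(FPKM + 1), and differences below are on that scale. In bulk RNA a lower level can come from fewer cells of a type or from less RNA per cell, and these cannot be told apart. The libraries of KO and WT had ranges apart for 52 of 77 members (67.5%), against 78.8% of all genes.

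The calls went both ways in each subunit. Among Mrpl genes 9 rose, 9 fell and 30 were not called. Among Mrps genes 5 rose, 4 fell and 20 were not called. The median difference was 0.05 for Mrpl and 0.07 for Mrps genes, beside 0.02 for all tested genes and 0.07 for genes in the same range of levels. Both medians turned negative without KO 2 (-0.04 and -0.03) and after quantile normalization (-0.03 and -0.04), so no direction holds for either subunit. The median size of the difference, without its sign, was 0.19 for members of either subunit, against 0.36 for all tested genes and 0.33 for those in the same range. The number of members at a 2-fold difference or more was 1, against 14.1% of all tested genes. Counting Mrps18a and Mrps30 with the large subunit and leaving out Mrps36, a choice made after the data were seen, gave medians of 0.06 for the large and 0.02 for the small subunit.

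**Figure D1:**
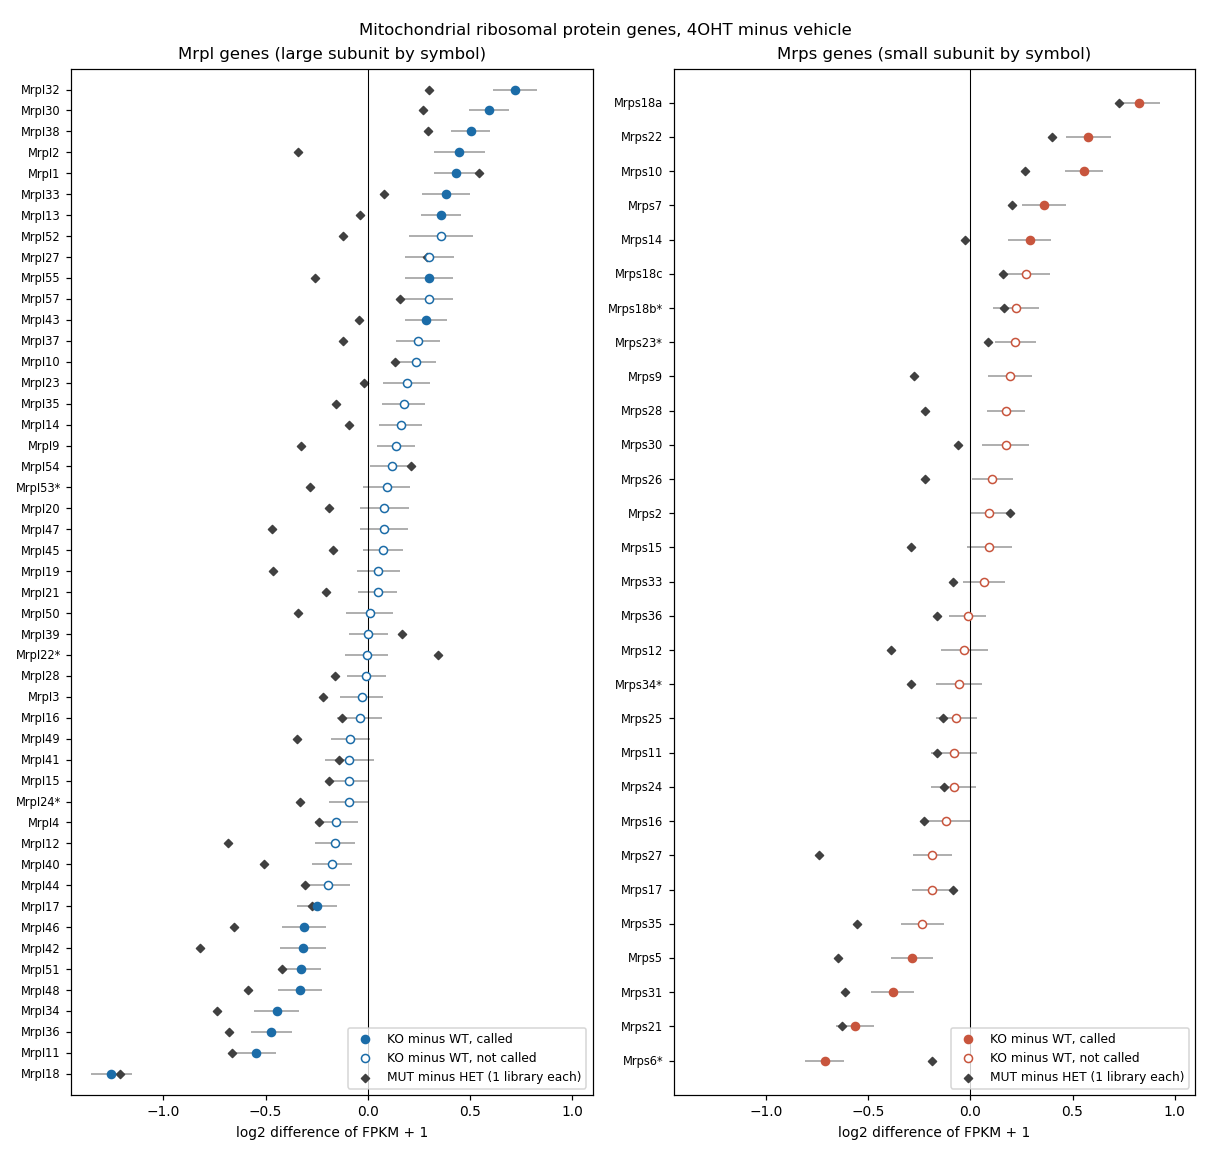
Log2 difference of each member, Mrpl genes on the left and Mrps genes on the right, with circles for KO minus WT (2 libraries each, filled if called, bars for limma's SE) and diamonds for MUT minus HET (1 library each, no error); an asterisk marks a row that also names another gene. Most circles lie near 0, Mrpl18 stands at -1.26 and Mrps18a at 0.82, and 58 of 77 diamonds lie below 0.

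The split of calls depended on single libraries. Without KO 1, 22 members were higher and 9 lower, and without KO 2, 12 were higher and 11 lower. Without WT 1 the counts were 9 and 9, and without WT 2 they were 10 and 6. Quantile normalization gave 10 higher and 14 lower, that is 41.7% of calls higher against 51.9% before. Without the filter on low values, which raised the genes tested to 23406, 6 were higher and 6 lower. That ended 17 of the 27 calls, left 10 and added 2. The calls left were those of Mrpl30, Mrpl32, Mrpl38, Mrps10 and Mrps18a, which rose, and of Mrpl11, Mrpl17, Mrpl18, Mrps6 and Mrps21, which fell. Over 15 alternatives (14 for members on joint rows, which drop out where only rows of 1 gene are used), 9 of the 27 calls were kept in each one run, 5 higher and 4 lower, and no called member changed sign. Of the 50 members without a call, 34 had none under any alternative.

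Among the Mrpl genes that rose, Mrpl32 had the largest difference. Its protein is cut to its mature form by the m-AAA protease, a step known in yeast and mouse to precede its entry into the ribosome. Mrpl32 (ENSMUSG00000015672, chromosome 13, 14608184 to 14613165, minus strand, GRCm38) had 38.5 and 43.7 FPKM in KO, against 25.9 and 23.2 FPKM in WT, and 33.9 FPKM in MUT, against 27.4 FPKM in HET. Every library with 4OHT was above every library with vehicle. The difference between KO and WT was 0.72 (SE 0.11, limma adjusted p = 0.000217). Mrpl30 was next, with 109 and 122 FPKM in KO, against 74.4 and 77.6 FPKM in WT, and 102 FPKM in MUT, against 84.5 FPKM in HET. Its difference was 0.59 (SE 0.10, adjusted p = 0.000515), again with no overlap between 4OHT and vehicle. Mrpl38, a mitochondria-specific protein of the central protuberance, had 44.2 and 41 FPKM in KO, against 29.4 and 30.1 FPKM in WT, and 39.0 FPKM in MUT, against 31.6 FPKM in HET. It rose by 0.50 (SE 0.10, adjusted p = 0.00117). Mrpl2, which lies close to the peptidyl transferase centre, had 87.9 and 115 FPKM in KO, against 75.2 and 71.9 FPKM in WT, but 76.9 FPKM in MUT, against 97.9 FPKM in HET. Mrpl2 rose in KO by 0.45 (SE 0.13, adjusted p = 0.0115), while the lone MUT library lay below the HET library. The call for Mrpl2 was lost without WT 2 (adjusted p = 0.0724). It was also lost without KO 2, where the difference was 0.25 (adjusted p = 0.0672). The other Mrpl genes that rose were Mrpl1, Mrpl33, Mrpl13, Mrpl55 and Mrpl43, with differences of 0.29 to 0.43. Mrpl13, Mrpl55 and Mrpl43 lost their calls when WT 1, WT 2 or KO 2 was left out, in 1 or more of these fits, and Mrpl55 and Mrpl43 also after quantile or TPM scaling. Mrpl33 lost its call without WT 1, WT 2 or KO 2 (adjusted p = 0.0761 to 0.0962).

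Mrpl18 fell more than any other member, and it alone passed 2-fold. Its bacterial counterpart binds 5S ribosomal RNA, and in human cells the protein takes part in the import of that RNA into mitochondria. Mrpl18 (ENSMUSG00000057388, chromosome 17, 12911349 to 12916345, minus strand) had 22.4 and 23.6 FPKM in KO, against 53.2 and 59.6 FPKM in WT, and 30.7 FPKM in MUT, against 72.4 FPKM in HET. The highest library with 4OHT, at 30.7 FPKM, was well below the lowest with vehicle, at 53.2 FPKM. The KO level was 0.408 times the WT level, a difference of -1.26 (SE 0.10, limma adjusted p = 2.64e-06). Its neighbour Tcp1, a subunit of the cytosolic chaperonin, starts 644 bases away on the other strand by the GENCODE M21 starts. Tcp1 differed by -0.0031 (adjusted p = 0.983).

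Mrpl11, which forms the base of the stalk that recruits translation factors, had 8.82 and 8.90 FPKM in KO, against 13.6 and 13.2 FPKM in WT, and 9.36 FPKM in MUT, against 15.4 FPKM in HET. It fell by 0.55 (SE 0.10, adjusted p = 0.000811). The other stalk genes were not called. Mrpl10, which anchors the stalk, differed by 0.24 (adjusted p = 0.0502), with 51.9 and 49.0 FPKM in KO, against 42.7 and 42.5 FPKM in WT, and was called with a pseudocount of 0.1 (adjusted p = 0.0499). Mrpl12, the mobile stalk protein, which also binds the mitochondrial RNA polymerase, differed by -0.16 (adjusted p = 0.182), with 55.3 and 60.1 FPKM in KO, against 62.5 and 66.7 FPKM in WT, and was called after quantile normalization (-0.27, adjusted p = 0.0289). Genes of a single structure thus had values on either side of 0. Mrpl36, a very small zinc-binding protein, had 30.0 and 33.4 FPKM in KO, against 42.5 and 46.0 FPKM in WT, and fell by 0.47 (SE 0.10, adjusted p = 0.00258). Mrpl34, another small bacterial-type protein, had 42.5 and 48.6 FPKM in KO, against 58.3 and 66.4 FPKM in WT, and fell by 0.45 (SE 0.11, adjusted p = 0.00531). Without WT 2 the call for Mrpl34 was lost (adjusted p = 0.0603). Mrpl48, Mrpl51, Mrpl42, Mrpl46 and Mrpl17 fell by 0.25 to 0.33, and each lost its call when at least 1 library was left out. Mrpl23, Mrpl24 and Mrpl45, the members chosen for the tunnel exit, where the new chain meets the inner membrane, were not called. Mrpl23 differed by 0.19 (limma adjusted p = 0.179), the joint row of Mrpl24 by -0.09 (adjusted p = 0.427) and the membrane anchor Mrpl45 by 0.07 (adjusted p = 0.537). Other members of that region were not grouped here. Without KO 1, Mrpl23 was called, at 0.34 (adjusted p = 0.0107).

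**Figure D2:**
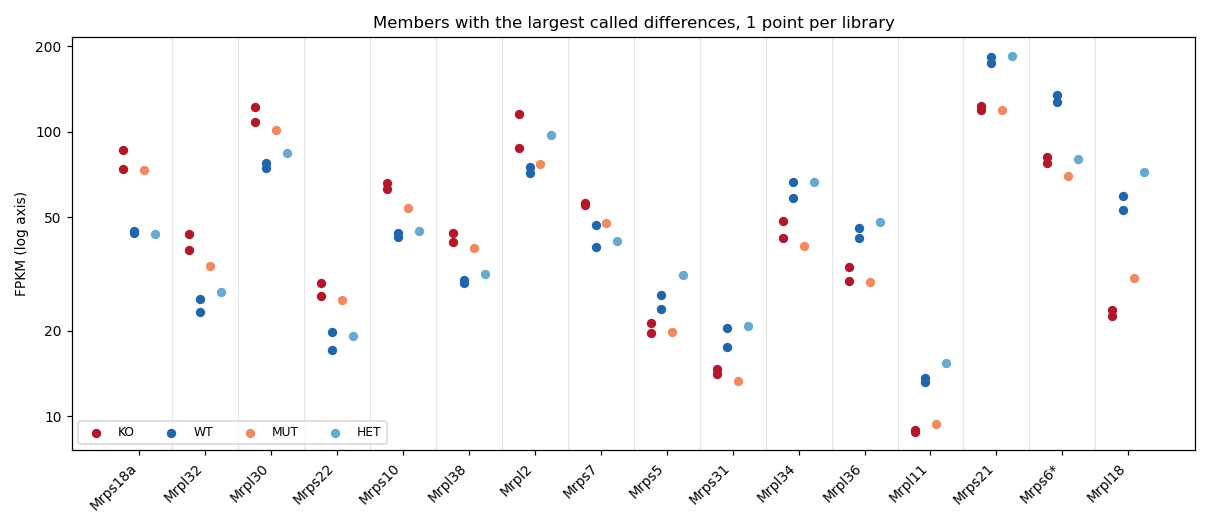
FPKM on a log axis in each library (points) for the 4 largest called rises and falls of each subunit, with KO, WT, MUT and HET side by side; the asterisk marks the row shared by Mrps6 and Slc5a3. KO points lie apart from WT points for every gene shown, but the genes were chosen by that difference. Over all members the ranges were apart for 52 of 77. Mrpl18 had 22.4 to 30.7 FPKM with 4OHT, against 53.2 to 72.4 FPKM with vehicle.

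Mrps18a had the largest rise of all members. The mouse has 3 paralogs of the bacterial protein S18, and Mrps18a is the one placed in the large subunit. Mrps18a (ENSMUSG00000023967, chromosome 17, 46110986 to 46128910, plus strand) had 86.1 and 73.9 FPKM in KO, against 44.3 and 45 FPKM in WT, and 73.2 FPKM in MUT, against 43.9 FPKM in HET. The libraries with 4OHT and those with vehicle did not overlap. KO was at 1.79 times WT, a difference of 0.82 (SE 0.10, limma adjusted p = 6.99e-05). Mrps18c, the paralog that takes the place of S18 in the small subunit, had 122 and 153 FPKM in KO, against 109 and 117 FPKM in WT. It differed by 0.27 and was not called (SE 0.12, adjusted p = 0.0725), although it was without KO 1 (0.44, adjusted p = 0.000676). The joint row of Mrps18b, 2310061I04Rik and Atat1 had 119 and 97.8 FPKM in KO, against 94.9 and 89.5 FPKM in WT, a difference of 0.23 (SE 0.11, adjusted p = 0.11). It was called without KO 2 (0.37, adjusted p = 0.00545). The differences between paralogs were not tested.

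Mrps22, a protein specific to mitochondria, had 26.4 and 29.5 FPKM in KO, against 17.1 and 19.8 FPKM in WT, and rose by 0.58 (SE 0.11, adjusted p = 0.00119). Mrps10, of the head of the small subunit, had 63.0 and 65.9 FPKM in KO, against 44.2 and 42.8 FPKM in WT, and rose by 0.56 (SE 0.09, adjusted p = 0.00052). Mrps7, another head protein, had 56.3 and 55.1 FPKM in KO, against 39.5 and 47.1 FPKM in WT, and rose by 0.36 (SE 0.11, adjusted p = 0.015). For these 3 genes the KO libraries were all above the WT libraries, and the MUT library was above the HET library by 0.21 to 0.40. Mrps7 was not called without WT 1 (adjusted p = 0.158) or after quantile normalization (adjusted p = 0.0506). Mrps14 rose by 0.29 (adjusted p = 0.0388), a call lost without WT 1, WT 2 or KO 2 and after quantile or TPM scaling.

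The row of Mrps6 had the largest fall among Mrps genes, with 77.9 and 81.3 FPKM in KO, against 127 and 135 FPKM in WT. The difference was -0.71 (SE 0.09, adjusted p = 0.000103). That row also names Slc5a3, a myo-inositol transporter gene within the Mrps6 locus, so the value cannot be given to Mrps6 alone. In MUT it stood at 70.1 FPKM, against 80.1 FPKM in HET. Mrps21 had 123 and 119 FPKM in KO, against 184 and 175 FPKM in WT, and 119 FPKM in MUT, against 185 FPKM in HET. It fell by 0.56 (SE 0.09, adjusted p = 0.000485), and no 4OHT library reached a vehicle library. Mrps31, specific to mitochondria, had 14.6 and 14 FPKM in KO, against 17.6 and 20.4 FPKM in WT, and fell by 0.38 (SE 0.11, adjusted p = 0.0113). Mrps5, at the entry of the messenger RNA channel, had 21.3 and 19.6 FPKM in KO, against 23.8 and 26.6 FPKM in WT, and fell by 0.29 (SE 0.10, adjusted p = 0.0346). The call was lost without WT 2 for Mrps31 (adjusted p = 0.113) and for Mrps5 (adjusted p = 0.217), and for Mrps5 also without KO 2 (adjusted p = 0.137). Mrps12, the decoding site protein, differed by -0.03 (adjusted p = 0.84), with 45 and 51.4 FPKM in KO, against 53.6 and 45.1 FPKM in WT. Mrps30, placed in the large subunit, differed by 0.17 (adjusted p = 0.222), with 52.6 and 42.9 FPKM in KO, against 40.4 and 43.7 FPKM in WT. It was called without KO 2 (0.32, adjusted p = 0.0251). The 50 members without a call differed by -0.23 to 0.36.

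Of the 77 members, 7 lie on rows that name further genes. Besides Mrps6, Mrps18b and Mrpl24 these are Mrpl22, Mrps23, Mrps34 and Mrpl53, none of which was called. Leaving out all rows of several genes gave 14 members higher and 12 lower.

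**Figure D3:**
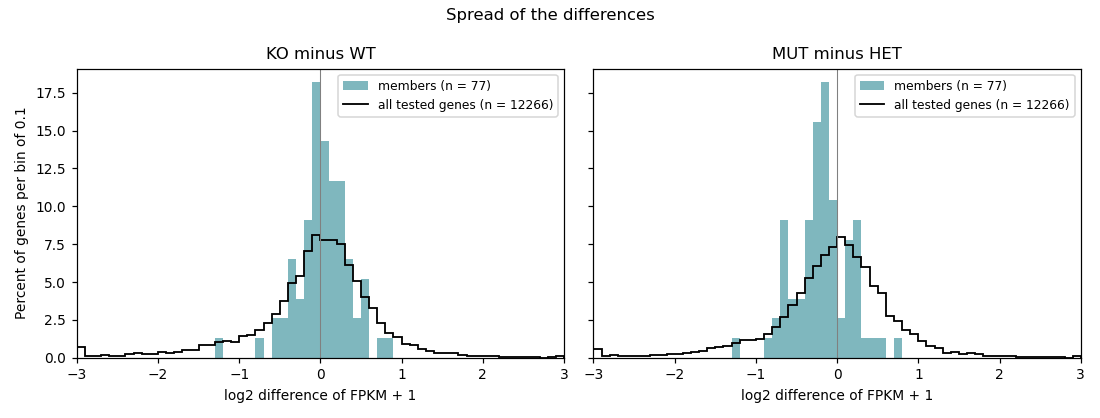
Share of genes per bin of 0.1 in log2 difference, for members (filled, n = 77) and all tested genes (line, n = 12266), in KO minus WT (left) and MUT minus HET (right); values beyond 3 in size are counted in the end bins. Members lie closer to 0 than all genes in KO minus WT, and their median is -0.19 in MUT minus HET, against 0.01 for all genes.

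The second comparison asked how members differed when the floxed allele was paired with E861A, with 1 library per group and so no replicate check. It is described without a test. Most members were lower in MUT. Of all members, 58 of 77 were lower in MUT than in HET (75.3%), against 49.4% of all tested genes. The median difference was -0.20 for Mrpl and -0.16 for Mrps genes, beside 0.01 for all tested genes and 0.05 for those in the same range of levels. On the log2(FPKM + 1) scale, 12 members were lower by at least 1.5-fold and 1, Mrps18a, was higher, against 16.7% and 14.1% of all tested genes. By the ratio of FPKM, Mrpl1 was just past that size too (1.51). On the log2 scale no member differed by 1.5-fold between the KO or between the WT replicates. Of the 12266 tested genes 107 and 103 did, and of the 7492 in the members' range of levels 40 and 13 did. Those replicates do not give the spread of the lone MUT and HET libraries. Rescaling each library to TPM left 54 of 77 members lower, with medians of -0.15 and -0.12.

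The 12 lower members were Mrpl18, Mrpl42, Mrpl34, Mrpl12, Mrpl36, Mrpl11, Mrpl46 and Mrpl48 of the large subunit and Mrps27, Mrps5, Mrps21 and Mrps31 of the small subunit. Mrpl18 had 30.7 FPKM in MUT, against 72.4 FPKM in HET, a difference of -1.21. Mrpl42 had 82.8 FPKM in MUT, against 147 FPKM in HET, a difference of -0.82. Mrps27, a pentatricopeptide repeat protein, had 12.9 FPKM in MUT, against 22.3 FPKM in HET, a difference of -0.74. For Mrps27 the KO libraries had 15.9 and 15.7 FPKM and the WT libraries 17.8 and 18.4 FPKM, without a call. Set against the Fl/Fl groups, the same lone MUT and HET libraries enter again, so the next counts are no separate check. MUT was below the KO mean in 60 of 77 members, with a median of -0.11. HET was above the WT mean in 60 of 77, with a median of 0.11. Over all 12266 tested genes these counts were 6853 and 6304, and the medians were -0.04 and 0.01. Summed over members, FPKM was 3840 and 4239 in KO, 3858 and 3844 in WT, 3689 in MUT and 4153 in HET. Members made up 0.712% and 0.744% of named FPKM in KO, 0.713% and 0.716% in WT, 0.685% in MUT and 0.746% in HET.

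Of the 27 members called in KO, 22 had the same sign in MUT. Called or not, 52 of the 77 members and 10067 of the 12266 tested genes did so. All 13 that fell in KO were lower in MUT than in HET, and for 11 of them that difference was larger than in KO. Of the 14 that rose in KO, 9 were higher in MUT than in HET, and 13 had a smaller or opposite difference there. Of the 50 without a call, 40 were lower in MUT than in HET, while 22 were lower in KO than in WT. Across members both sets of differences correlated with Pearson's r of 0.81 and Spearman's rho of 0.76 (n = 77), against 0.87 and 0.83 across all 12266 genes. These are descriptions over genes of the same libraries, which are not independent replicates.

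**Figure D4:**
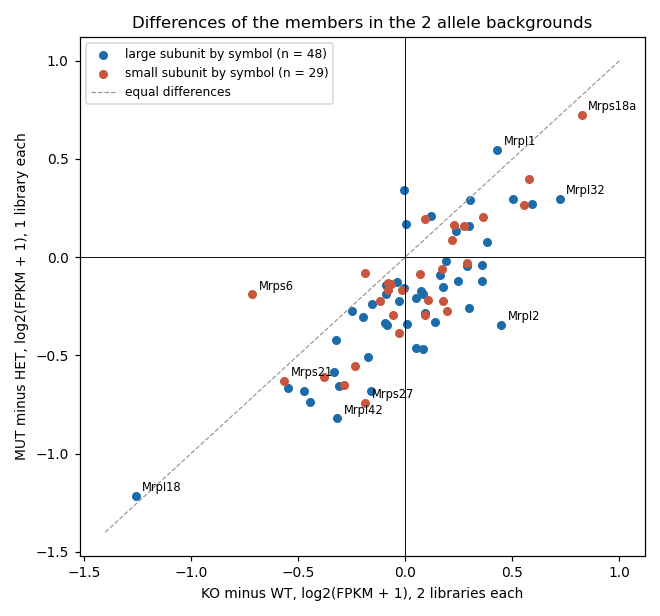
Log2 difference of each member in MUT minus HET (vertical, 1 library each) against KO minus WT (horizontal, 2 libraries each), with blue points for Mrpl and red points for Mrps genes and a dashed line of equal differences. Most points lie below the line: the KO difference was the higher of the pair in 69 of 77 members, against 6589 of 12266 tested genes.

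The difference between both effects was tested gene by gene with limma over all 6 libraries. It was above 0 in 69 of 77 members, with a median of 0.23. For all tested genes it was above 0 in 6589 of 12266, with a median of 0.03, and in the members' range of levels in 4156 of 7492. All members share the lone MUT and HET libraries, so they are not independent observations. After rescaling to TPM the difference between effects was above 0 in 59 of 77 members, with a median of 0.15. None of the 77 members was called, against 4.01% of all tested genes, and 13 members had an unadjusted p under 0.05, 12 of them positive, against 17.3% of all tested genes. The smallest p belonged to Mrpl2, with a difference of 0.79 (SE 0.22, adjusted p = 0.0811), followed by Mrps27 with 0.55 (SE 0.17, adjusted p = 0.108) and the joint row of Mrps6 with -0.52 (SE 0.16, adjusted p = 0.12). Without KO 1 the count of called members was 7 (Mrps9, Mrpl42, Mrpl55, Mrpl12, Mrpl52, Mrpl2 and Mrpl47), and without KO 2 it was 2 (Mrps6 and Mrpl2). Those fits assume that the lone libraries vary like the others.

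Set together over both allele backgrounds, 4OHT against vehicle used all 6 libraries and so shares 4 with KO against WT. It called 9 members higher and 17 lower (33.8%), against 57.4% of all tested genes, 29.2% higher and 28.2% lower. The direction was that of KO against WT for 21 members called in both. Those called here and not in KO against WT were Mrpl27, which was higher, and Mrpl12, Mrpl40, Mrps27 and Mrps35, which were lower, by -0.37 to -0.29. Mrpl18 differed by -1.24 (SE 0.09, limma adjusted p = 8.87e-06) and Mrps18a by 0.79 (SE 0.09, adjusted p = 0.00014). Leaving out single libraries moved the counts to 7 to 9 higher and 12 to 17 lower.

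Descent from bacteria was read from the number in the symbol, up to 36 for Mrpl and up to 21 for Mrps genes. Of 44 members with such a number, 10 rose and 8 fell in KO (40.9%). Of the 33 with higher numbers, 4 rose and 5 fell (27.3%). Calls were made for 57.7% of all tested genes and for 57.6% of those in the members' range of levels. On the log2(FPKM + 1) scale a difference of at least 1.5-fold was found for 5 of the 44, namely Mrpl18, Mrps18a, Mrpl32, Mrps6 and Mrpl30, and for 0 of the 33. It was found for 3782 of all 12266 tested genes and for 2084 of the 7492 in the members' range of levels, so both groups were below these shares. By the ratio of mean FPKM, Mrpl11 of the 44 (0.66) and Mrps22 of the 33 (1.52) lie just past that size as well. In MUT, 31 of the 44 and 27 of the 33 were lower than in HET, against 49.4% of all tested genes. These are counts, and the difference between them was not tested.

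Transcript length went with differences between the replicates. By the median length of annotated protein-coding transcripts (GENCODE M21, GRCm38), members run from 405 to 6073 bases with a median of 1047. Among the 39 up to that median, KO 2 was above KO 1 for 33, with a median difference of 0.16, and among the 38 longer members for 21, with a median of 0.05. Spearman's rho of length was -0.38 with KO 2 minus KO 1, 0.32 with WT 2 minus WT 1 and 0.03 with KO minus WT (n = 77). The part of transcript length in the results above was not tested.

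Many members share a start region with another gene. Within 1000 bases, 33 members have a gene that starts on the other strand, and 29 distinct pairs could be tested on both sides. In 1 of them, Mrpl46 and Mrps11, both genes are members. Of the 28 partners that are not members, 8 were higher, 7 were lower and 13 were not called in KO. Over all tested genes 29.5% were higher and 28.2% were lower. The sign was shared in 17 of the 29 pairs, and Pearson's r of the differences was 0.01. Mrpl30 and Mitd1 both rose, and Mrpl51 and Ncapd2, a condensin subunit, both fell. Mrpl48 fell beside Rab6a, which rose, and Mrpl43 rose beside the helicase gene Twnk, which fell. Mrpl32 rose by 0.72 beside the proteasome gene Psma2, which differed by 0.04 (adjusted p = 0.742). These pairs were named after their values were seen. Use of strand in the counting is not given in the sources used here, so where such genes overlap their reads may not be told apart.

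The counts for other genes of mitochondrial function are to be set beside the 57.7% of all tested genes that were called in KO. Among 5 ribosomal proteins without an Mrp symbol 1 rose, Chchd1 by 0.29 (SE 0.10, limma adjusted p = 0.025), and 4 were not called. Chchd1 lost that call when WT 1 or KO 2 was left out (adjusted p = 0.188 and 0.0527) and after quantile normalization (adjusted p = 0.125). All 5 were lower in MUT than in HET, with a median of -0.30. Of 26 assembly factors, 7 rose, 3 fell and 16 were not called, with a median of 0.15. The helicase Ddx28 had 11.9 and 13.6 FPKM in KO, against 7.54 and 7.70 FPKM in WT, and rose by 0.67 (SE 0.11). Afg3l2, a subunit of the m-AAA protease, rose by 0.47 (SE 0.09), whereas Mettl17 fell by 0.39 (SE 0.10) and the GTPase Noa1 by 0.40 (SE 0.11). Of 18 translation factors 6 rose, 0 fell and 12 were not called, led by the recycling factor Mrrf at 0.66 (SE 0.10) and the amidotransferase subunit Gatc at 0.40 (SE 0.10). The median of that list was 0.07. The calls of Mettl17 and Gatc were lost without WT 1 (adjusted p = 0.0652 and 0.0663), and that of Noa1 without WT 2 (adjusted p = 0.0858).

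Of 15 synthetases that charge mitochondrial transfer RNA, 1 rose, 3 fell and 11 were not called, with a median of -0.02. Fars2, the phenylalanine enzyme, rose by 0.74 (SE 0.11). Sars2 fell by 0.38 (SE 0.13) and lost its call without WT 1, WT 2 or KO 2 (adjusted p = 0.0957 to 0.259). Of 13 genes for upkeep and transcription of mitochondrial DNA, 3 rose, 4 fell and 6 were not called, with a median of -0.08. Trmt10c, a subunit of mitochondrial RNase P, had 38.2 and 37.6 FPKM in KO, against 12.4 and 14 FPKM in WT, and rose by 1.46 (SE 0.10, limma adjusted p = 9.48e-07). The topoisomerase Top1mt rose by 0.84 (SE 0.10), while Elac2, which trims transfer RNA, fell by 0.70 (SE 0.10) and the exonuclease Mgme1 by 0.59 (SE 0.11). Of 15 mitochondrially encoded genes looked for, 0 had a row of their own under the symbols used, so they were not analysed here.

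**Figure D5:**
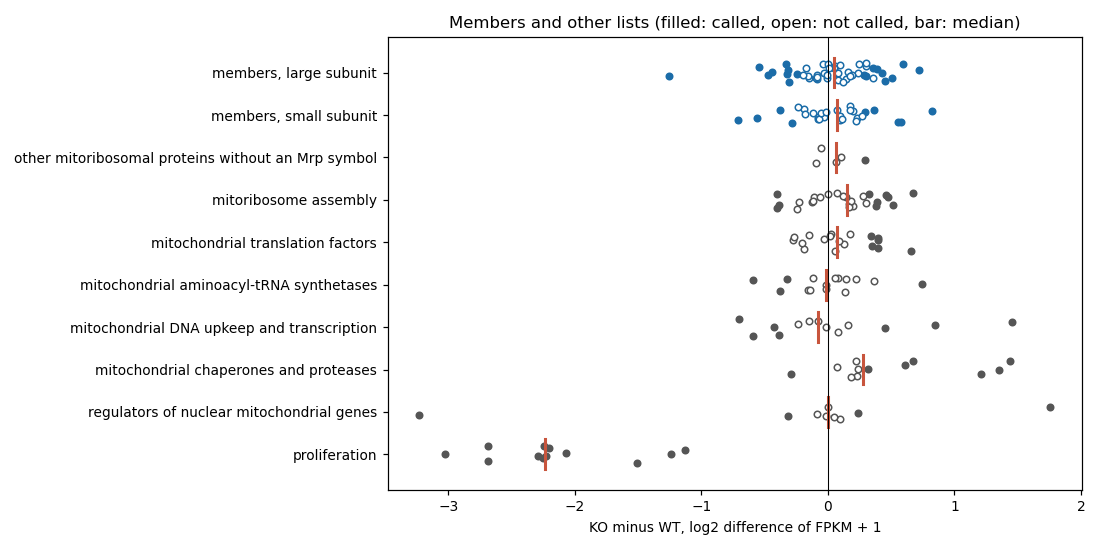
Log2 difference KO minus WT of each gene (points, filled if called by limma) in the members and in 8 other lists, with a bar at each list's median. Members cluster near 0 with medians of 0.05 and 0.07, while the 12 proliferation genes lie between -3.03 and -1.13.

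Among 9 regulators of nuclear genes for mitochondria, 2 rose, 2 fell and 5 were not called. Myc had 43.7 and 36.2 FPKM in KO, against 11.1 and 11.1 FPKM in WT, and rose by 1.76 (SE 0.11, limma adjusted p = 5.13e-07). Myc is also among the introduced factors, and transcripts of the gene and of the factor were not separated. Max rose by 0.24 (SE 0.09, adjusted p = 0.0472) and lost its call without any 1 of the 4 libraries (adjusted p = 0.0889 to 0.215) and under each other scaling tried. Mycn had 0.567 and 0.394 FPKM in KO, against 14.3 and 11.6 FPKM in WT, and fell by 3.23 (SE 0.13). Nrf1 fell by 0.32 (SE 0.10, adjusted p = 0.0219), a call lost without WT 2 (adjusted p = 0.137) or KO 1 (adjusted p = 0.093). Of 12 mitochondrial chaperones, proteases and their regulators, 6 rose, 1 fell and 5 were not called, with a median of 0.27. The protease Lonp1 had 110 and 106 FPKM in KO, against 45.7 and 46.3 FPKM in WT, and rose by 1.21 (SE 0.09). The chaperone Hspa9 had 424 and 470 FPKM in KO, against 165 and 183 FPKM in WT, and rose by 1.36 (SE 0.10). Yme1l1 fell by 0.29 (SE 0.11, adjusted p = 0.0434), a call lost without WT 2 (adjusted p = 0.325) or KO 1 (adjusted p = 0.0938). All 12 proliferation genes fell: Ccnb1 fell by 3.03 (SE 0.10) and Ccnb2 fell by 2.69 (SE 0.10). Their sum was 211 and 199 FPKM in KO, against 693 and 741 FPKM in WT, and 311 FPKM in MUT, against 974 FPKM in HET. The part of proliferation and of the pluripotency markers given above in the results for the members was not tested.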

How the data were processed

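Per the labels' protocols, libraries were made from TRIzol-extracted total RNA after ribosomal RNA had been removed (Ribo-Zero). The authors deposited FPKM per gene row with decimal commas, per the file headers, 24879 rows for each of 6 libraries. The submitters' processing notes name TopHat2 2.1.1, Bowtie2 2.3.0 and Cufflinks 2.2.1 and the builds GRCm38 and mm10, but no role for any. Not given in the sources used here are the annotation, strand use and scaling across libraries. Depth is unknown, since FPKM holds no counts, so no count test, interval or floor was used.

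Rows without a name (1021) were left out, and of several rows for a symbol only that of highest mean entered. Groups came from the sample titles. The 12266 genes at FPKM 1 or above in 2 or more of the 6 libraries were tested on log2(FPKM + 1), a scale that understates changes of low genes, with limma 3.58.1 in R 4.3.3 (lmFit, eBayes with trend, two-sided, Benjamini-Hochberg over all tested genes, called under 0.05). KO against WT used 4 libraries. The KO minus MUT effect used 4 group means, and 4OHT against vehicle used treatment and allele background, over 6 libraries. MUT against HET had no test. The code was tested on simulated data. Levels set side by side assume that FPKM is comparable between libraries. GENCODE M21 gave coordinates and lengths and RefSeq the promoters.

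The members, gene lists and tests were chosen with earlier results of these data known. Members named are the 4 largest called rises and falls per subunit, the 3 highest and 3 lowest levels, the 3 smallest p for the KO minus MUT effect, members with set roles (the S18 paralogs, stalk, tunnel exit, decoding site, messenger entry and Mrps30), and the 2 of smallest p per direction in each other list. A gene named by that rule is not reported here. Other genes were named after their values were seen. Alternatives were the pseudocount, filters, scalings, rows of 1 gene, eBayes without trend, all 6 libraries in the fit, the replicate block and leaving out each replicate.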

Additional observations from a re-analysis of the deposited data

Results flagged for a closer look

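Among the genes of the other lists, 2 had a KO effect that differed from the MUT effect by limma's test over 6 libraries, and neither is a mitochondrial ribosomal protein gene. Both are named because of this test. Lars2, which charges mitochondrial transfer RNA with leucine, had 156 and 155 FPKM in KO, against 171 and 130 FPKM in WT, and 174 FPKM in MUT, against 322 FPKM in HET. Its effect was 0.94 higher in KO than in MUT on the log2 scale (adjusted p = 0.0421). That call was lost with a pseudocount of 0.1 (adjusted p = 0.0538), without the filter on low values (adjusted p = 0.415), without trend (adjusted p = 0.0632) and without WT 2 (adjusted p = 0.119). Mki67, a marker of cycling cells, had 2.6 and 2.3 FPKM in KO, against 15.8 and 14.9 FPKM in WT, and 7.13 FPKM in MUT, against 21.9 FPKM in HET. Its difference between effects was -0.76 (adjusted p = 0.0494), lost without the filter (adjusted p = 0.212), after quantile normalization (adjusted p = 0.0776), without trend (adjusted p = 0.0564), without WT 1 (adjusted p = 0.132) and without WT 2 (adjusted p = 0.101). MUT and HET each rest on 1 library, and no explanation was tested.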

How the results depend on the processing

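Without the filter on low values the called members fell to 6 higher and 6 lower (4 and 3 of the large subunit, 2 higher of the small), all genes called to 4433, and members lower with 4OHT to 8, while 1 member, Mrpl9, was called for the KO minus MUT effect. Among genes of other lists, Chchd1, Noa1, Gatc, Sars2, Nrf1 and Yme1l1 lost their calls in that setting. After quantile normalization 3 small subunit members were higher and the median of that subunit was -0.0415. With the replicate block, 23 members were higher (14 large, 9 small) and 14 lower. The correlation of KO 1 minus KO 2 with WT 1 minus WT 2 was 0.18, and the labels do not say that the numbers pair the libraries. Leaving out each replicate gave 9 to 22 members higher (large 6 to 14, small 3 to 8), 6 to 11 lower (large 4 to 7, small 2 to 4), medians of -0.0386 to 0.0772 (large) and -0.0313 to 0.0722 (small), 0 to 7 members called for the KO minus MUT effect, and 5739 to 6849 genes called in all. Of the 50 members without a call, 18 changed sign under at least 1 alternative. Among the named ones Mrps12 did so, with 0.0931 without WT 1 and 0.0643 without KO 1, and its lowest value was -0.153. The cause of these changes was not tested. Over the 55 genes named by rule, 758 alternatives gave the same call, 50 lost it, 12 gained it and 2 changed sign. With 2 libraries per group and 1 each for MUT and HET, small differences cannot be resolved, and FPKM gives no depth to set a detection limit.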
